A study of Panicum virgatum with 54 samples.

Results

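The genes described here are switchgrass leaf genes that at 96 to 168 h were near the untreated transcript level under drought alone and higher under drought and heat. Just before the heat, at 72 h, their mean level under drought and heat was at most slightly above control and drought, within a limit given below. Levels under drought alone at 72 h were not held near control, and in some members they were high, as given below. They were chosen by their measured values. A level was log2(CPM + 1), where CPM (counts per mega, M) is the count of a gene divided by the total count of its library in M. Over the 12 libraries per treatment at 96 to 168 h, the median under drought had to lie within 0.3 of the control median, and the 25th percentile under drought and heat had to lie at least 0.5 above it, a distance called the gap below. At 72 h, the mean under drought and heat had to be less than 0.3 above the means of both control and drought. Of 32190 genes in the table, 111 met these conditions, so the limit of 200 genes set on the list was not reached. The differences that chose the members are given as descriptions.

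Switchgrass (Panicum virgatum) is a perennial C4 grass, and AP13 is a genotype of its lowland cultivar Alamo, grown here as ramets. Leaf mRNA was sequenced in 54 libraries, in 18 groups of 3. The 3 treatments were untreated control, drought, and drought and heat, here called combined stress, each sampled at 0, 72, 96, 120, 144 and 168 h. Per the sample titles, combined plants at 72 h had had 0 h of heat, and those at 96, 120 and 144 h had had 24, 48 and 72 h. Titles of the 168 h samples read 1 week and give no hours of heat, and the combined 96 h titles read 94 h, which was taken as 96 h as in the design text. Control and drought plants stood in a growth chamber together and combined plants in a separate one, so heat and chamber cannot be told apart. Per the labels all groups share the genotype, so the data cover no other. Whether all plants were of a single clone was not tested. Nothing in the labels ties the 3 libraries of a group to different plants, so p-values reflect only how far these libraries spread, and part of that may be technical.

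In plants generally, heat that unfolds proteins activates heat shock transcription factors, which switch on genes for chaperones such as Hsp101, Hsp90, Hsp70 and the small heat shock proteins. Transcripts of many of these genes climb within hours and then settle while the heat lasts. Drought acts largely through abscisic acid and through genes for protective proteins and osmolytes, and leaves under both stresses at once have to limit water loss while transpiration would cool them. The table gives genes as identifiers of the Pavir v4.1 form with no names, and 0 of its identifiers matched the RefSeq table for switchgrass, so it was not determined which members, if any, belong to these classes, and leaf marker genes could not be checked. In leaf RNA from whole tissue, fewer cells of a type and less RNA per cell cannot be told apart.

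The label of the list, genes raised after heat began, is described here library by library and was not tested. A library was counted as over the threshold for a gene where its level was at least 0.5 above the control median at 96 to 168 h. That is the gap of the rule, which thus puts each member over it in most heated combined libraries. Drought and 72 h levels were also bound by the rule, so nothing is read from how the members' shares compare with all genes. In the 12 heated combined libraries, 41 to 111 members were over it, with a median of 97, beside 14.0% to 45.1% of all genes. In the 12 drought libraries of the same times the number was 3 to 44, or 2.70% to 39.6% of the members, near the 7.65% to 34.1% of all genes. In the 12 control libraries it was 0 to 51, the 51 in control 144 h replicate 2, beside 3.37% to 37.6% of all genes. Before heat, at 72 h, combined replicates 1 and 2 had 4 and 13 members over the threshold, but replicate 3 had 86. Over all genes, 12.4%, 20.9% and 36.2% were over it in these 3 libraries. In replicate 3, the level of a member was above the mean of replicates 1 and 2 by a median of 0.84 log2 units, against 0.27 for all genes, and by at least 0.5 in 81 members, against 36.9% of all genes. In 43 of the 111 members that library, which the titles give no heat, was at or above the median of the heated combined libraries, a smaller share than the 63.3% of all genes. With TMM scaling (a trimmed mean of log ratios between libraries), which corrects for a few genes taking a large share of the counts, 48 members were over the threshold in it, beside 21.1% of all genes. Replicates 1 and 2 had 3 and 13 by TMM, beside 12% and 19.1% of all genes. The rule bounds the combined mean at 72 h, so where replicate 3 was high it favours genes low in replicates 1 and 2. Nothing is read from these low shares.

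**Figure D1:**
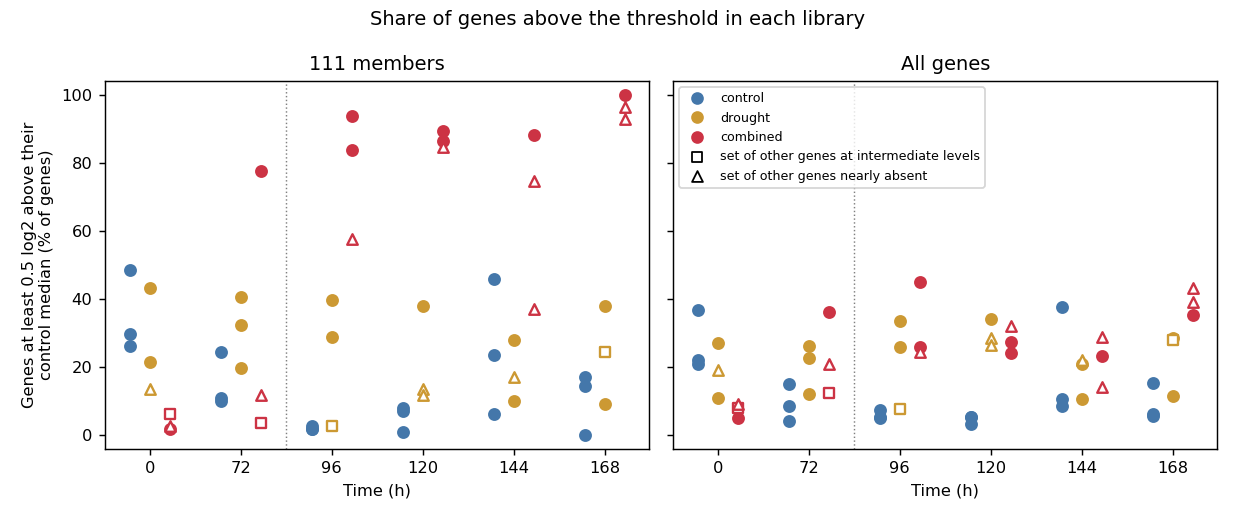
Share of genes at least 0.5 log2(CPM + 1) above their control median over 96 to 168 h (y axis, % of genes), by time (x axis, h), for the 111 members on the left and all 32190 genes on the right; each point is a library, colour gives the treatment, the dotted line marks the start of heat in combined plants, and open squares and triangles mark libraries in which a set of 405 other genes was at intermediate levels or nearly absent. Combined 72 h replicate 3, without heat, had 86 of the 111 members over the threshold, within the range of 41 to 111 in the heated combined libraries.

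The 72 h condition removed more genes than it left. Of 18304 genes that met the drought condition, 1071 also met the gap condition, and 960 of these failed at 72 h, 700 because the combined mean was too high over both control and drought, 240 over control only and 20 over drought only. Among the members, the combined mean at 72 h was above the control mean in 87 by column totals, where 66.7% of all genes were. The median difference was 0.18, where all genes had 0.17. By TMM it was above control in 55 members, with a median difference of -0.0003. Which genes remained depended on single libraries at 72 h. Without combined 72 h replicate 3, 452 genes met the rule, 109 of them among the 111. Without combined 72 h replicate 1, 46 genes met it, 45 of them among the 111. Without combined 144 h replicate 2, 178 genes met it, 109 of them members. Of the 111, 10 met the rule whichever of the 45 libraries it uses was left out.

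The scaling of the libraries mattered as much. By column totals, the median of all genes was 0.17 log2 units higher in combined than in control libraries at 96 to 168 h, and by TMM it was 0.01 higher. Under TMM, 106 genes met the rule, 32 of them among the 111, and under the size factors of DESeq2 96 genes met it, 26 of them among the 111. All 79 members lost under TMM failed at the gap, which had a median of 0.42 and a range of 0.075 to 1.66 over the 111 and stayed above 0 in each. The 26 members that met the rule under all 3 scalings had gaps of at least 0.54, with a median of 0.78. They included all 9 members with a gap of 1 or more. A set of 405 other genes was nearly absent from 12 libraries, none of them control, and at intermediate levels in 4. The set contained 0 members. Without those 16 libraries 68 genes met the rule, 8 of them among the 111, and without the 12 alone 296 genes met it, 47 of them members. The depth of a library, its total count, was between 19.2 and 61.6 M, and 34.6 M at the median.

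**Figure D2:**
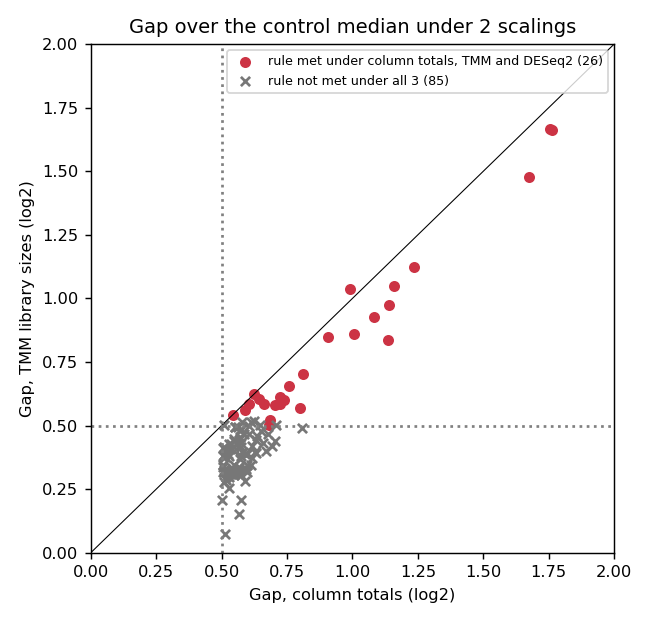
Gap of each of the 111 members, the 25th percentile of the combined level over 96 to 168 h minus the control median, by column totals (x axis, log2) and by TMM library sizes (y axis, log2); red points are the 26 members that met the rule under all 3 scalings, grey crosses the other 85, dotted lines mark 0.5 and the solid line equality. Most members with a gap below 0.7 by column totals lay below 0.5 by TMM, and the median TMM gap was 0.42.

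Members were genes of ordinary abundance and their differences were moderate. The mean CPM of a member over the heated combined libraries had a median of 11.1 over the 111 and ran from 1.90 to 551, against a median of 6.01 and a range of 0.75 to 182 in control libraries. For all genes the 2 medians were 11.7 and 9.64. The ratio of the 2 means had a median of 1.82 over the members and reached 4.42, and it was 2 or more in 31 members. Summed over the 111, the level was 3014 CPM in combined and 1566 CPM in control libraries. The gap was between 0.5 and 0.6 in 67 members, next to 168 genes outside the list that met the other conditions with a gap between 0.4 and 0.5. The last gene inside, Pavir.6NG288500.v4.1 on chromosome 6N, had a gap of 0.50 and medians of 35.1 CPM in control, 35.1 in drought and 52.2 in combined libraries. The first gene outside, Pavir.2NG603000.v4.1 on chromosome 2N, had a gap of 0.4996 and medians of 9.57, 10.8 and 17.5 CPM.

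At each heated time the members were higher under combined stress than under drought. The median difference of group means over the 111, in log2(CPM + 1), was 0.57, 0.54, 0.47 and 0.72 in order of time from 96 h, where all genes had medians of 0.01, 0.00, 0.01 and 0.15. By TMM the 4 values were 0.55, 0.55, 0.46 and 0.57. In ratios of mean CPM the members' medians were 1.55, 1.53, 1.45 and 1.78, and the combined mean was above the drought mean at all 4 times in 107 members, against 24% of all genes. Against control, the median differences were 0.77, 0.85, 0.43 and 0.90 by column totals, with all genes at 0.19, 0.25, 0.01 and 0.25, and 0.60, 0.62, 0.43 and 0.64 by TMM. The comparisons with drought and with control share the combined libraries, and the rule used all of them.

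**Figure D3:**
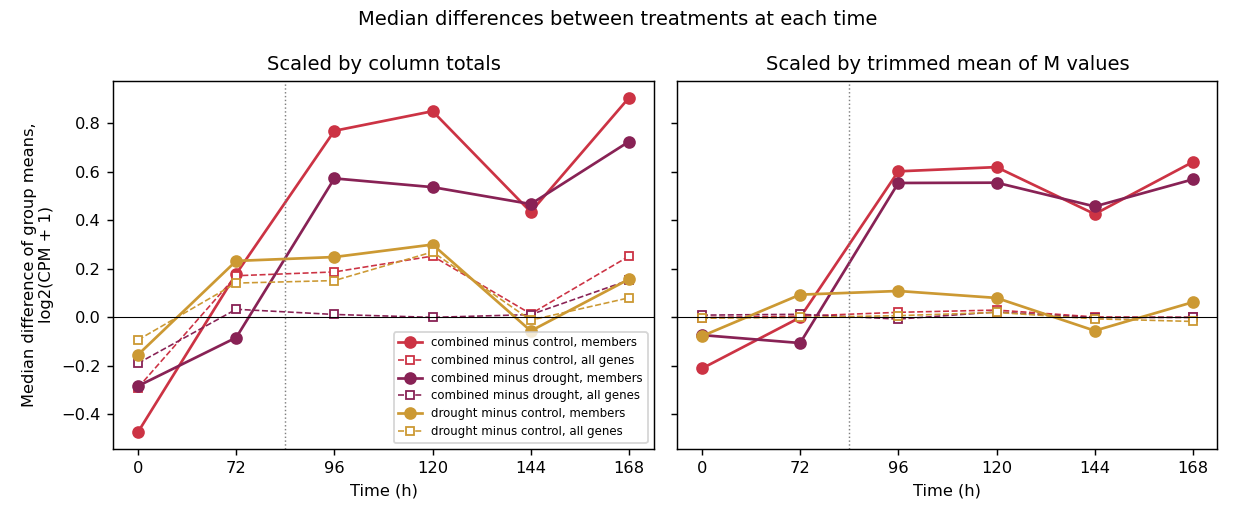
Median over genes of the difference between group means in log2(CPM + 1) (y axis) at each time (x axis, h), by column totals on the left and by TMM library sizes on the right; filled circles with solid lines are the 111 members, open squares with dashed lines all 32190 genes, colours give the treatments compared and the dotted line marks the start of heat. Members lay 0.46 to 0.57 above drought at the 4 heated times by TMM and slightly below it at 0 and 72 h.

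In a model of all genes fitted with edgeR, 93 members were called higher in combined than in drought libraries over 96 to 168 h at an adjusted p below 0.05, where 15.8% of all genes were called higher. Their fitted differences over the 111 had a median of 0.59 and a range of 0.25 to 3.21. Without the 16 libraries in which the 405-gene set was low, 47 members were called. Against control, 105 members were called higher, where 24.4% of all genes were. Between drought and control, which the rule holds close together, edgeR called 0 members, where 12.3% of all genes were higher and 9.81% lower, and 4 members were higher at an unadjusted p below 0.05. At single times, 8 members were called higher than under drought at 96 h, where 3.66% of all genes were. The later times gave 7 at 120 h, beside 1.28% of all genes, then 2 at 144 h, beside 0.725%, and finally 10 for 168 h, beside 1.08%. The rule chose the members by these libraries, so nothing is read from those counts.

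Separation from drought library by library was incomplete in nearly all members. The 12 heated combined libraries were all above the 12 drought libraries of the same times in 2 members, where 0.317% of all genes had that pattern, and all above the 12 control libraries in 5 members, where 0.631% of all genes did. The 5 were Pavir.9KG212600.v4.1, Pavir.1NG398300.v4.1, Pavir.9KG254800.v4.1, Pavir.5KG776200.v4.1 and Pavir.J616300.v4.1, named after their values were seen. In 34 members at least 9 of the 12 combined libraries were above the highest drought library, and in 4 members (Pavir.1KG418700.v4.1, Pavir.5KG444100.v4.1, Pavir.1NG445600.v4.1 and Pavir.7KG155900.v4.1) none was. The shares of all genes with these last 2 patterns are not given here. The rule chose the members by these libraries, so nothing is read from the counts.

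The 2 members whose combined and drought libraries did not overlap were chosen after their values were seen, and they differ much in size. Pavir.J616300.v4.1, on sequence placed on no chromosome, had (4.12, 3.81, 5.74), (4.14, 4.69, 5.03), (4.28, 5.64, 3.95) and (5.16, 5.01, 6.05) CPM in replicates 1 to 3 in combined libraries of 96, 120, 144 and 168 h. It had 1.65 to 3.66 CPM with a median of 2.55 in the 12 drought libraries, and 1.40 to 3.37 with a median of 2.61 in the 12 control libraries. All heated libraries were thus above all others of these times, by a small amount at a low level. At 72 h its combined libraries had 2.42, 1.54 and 3.58 CPM and at 0 h 1.76, 2.83 and 1.78, all below the heated ones. Its fitted difference from drought over the heated times was 0.87 ± 0.16 (SE) log2 units.

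The other was Pavir.5NG105600.v4.1 on chromosome 5N, which had the largest gap of all members, 1.76. Its heated combined libraries had (8.68, 10, 35.6), (9.70, 24, 27.8), (41.9, 45.3, 32.4) and (12.7, 7.56, 23.0) CPM in replicates 1 to 3 of 96, 120, 144 and 168 h. The 12 drought libraries of those times had 0.377 to 6.93 CPM with a median of 1.89, all lower. Control libraries had 0.128 to 43.6 CPM with a median of 2.25, and control 144 h replicate 3 at 24.8 and control 168 h replicate 3 at 43.6 were within the combined range. Before heat the gene was far from flat. Drought libraries at 72 h had 135, 16.2 and 3.87 CPM, and the first of these was the highest of all 54. Combined libraries at 72 h had 0.332, 0.636 and 8.65 CPM.

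Pavir.9NG570500.v4.1 on chromosome 9N, second by gap at 1.76, had much the same profile. Its heated combined libraries had (11.8, 6.32, 33.5), (6.92, 13.7, 18.8), (122, 25, 23.8) and (26.3, 10.7, 26.1) CPM in replicates 1 to 3 of 96, 120, 144 and 168 h. Drought libraries of those times had 0.330 to 9.75 CPM with a median of 2.71, and control libraries 0.151 to 39.4 with the same median of 2.71. The lowest combined libraries thus lay within the drought range, and the highest control libraries within the combined range. At 72 h the drought libraries had 309, 46.8 and 2.72 CPM and the combined ones 0.393, 1.04 and 7.28. The gene met the rule in all 45 settings that leave out a library, with gaps from 1.61 to 1.90, and under the other 2 scalings.

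High drought values at 72 h were common at the top of the list and uncommon below it. In 10 members the drought 72 h mean was at or above the mean of the heated combined libraries, where 40.6% of all genes had that order. Of these 10, 7 were among the 10 members with the largest gaps, and 7 had their highest level of all 54 libraries in drought 72 h replicate 1. Of the 9 members with a gap of 1 or more, 7 spanned at least 2 log2 units among the 12 control libraries at 96 to 168 h, as 14 of the 111 members and 15.9% of all genes did. The rule asks that the combined mean at 72 h be less than 0.3 above both the drought and the control mean. Whether high drought values at 72 h bear on which members were chosen was not tested. As the rule used the 72 h libraries and bars combined means 0.3 or more above drought, the calls that follow are a description. Nothing is read from them. The edgeR fit called 4 members lower in combined than in drought libraries at 72 h, where 0.69% of all genes were called lower, namely Pavir.9NG570500.v4.1, Pavir.3KG025500.v4.1, Pavir.1KG194500.v4.1 and Pavir.7KG110100.v4.1. For the difference between combined and drought over the heated times minus that at 72 h, it called 4 members higher, where 0.0312% of all genes were. Those 4 were Pavir.5NG105600.v4.1, Pavir.6KG152000.v4.1, Pavir.3KG025500.v4.1 and Pavir.7KG110100.v4.1 and are named because they were called. In each the drought mean at 72 h exceeded the drought mean over the heated times. These calls rested on single libraries. Leaving out combined 72 h replicate 1 or 2, drought 72 h replicate 1 or 2, drought 96 h replicate 1, drought 120 h replicate 1, combined 96 h replicate 3, or combined 168 h replicate 1 or 3 gave 0 calls each. Without combined 120 h replicate 3 there was 1, without drought 144 h replicate 2 or combined 144 h replicate 1 there were 2, without drought 72 h replicate 3 there were 7, and without combined 72 h replicate 3 there were 12. Without the 16 libraries in which the 405-gene set was low, 0 members were called.

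The abundant Pavir.1NG549600.v4.1 and the more variable Pavir.9KG212600.v4.1 had their highest levels in heated combined libraries. In both, combined 72 h replicate 3, without heat, was within the heated range. Pavir.1NG549600.v4.1 on chromosome 1N, with a gap of 0.64, had (228, 169, 197), (270, 269, 251), (283, 186, 275) and (381, 309, 317) CPM in replicates 1 to 3 in combined libraries of 96, 120, 144 and 168 h. The 12 drought libraries had 96.9 to 202 CPM with a median of 142 and the 12 control libraries 99.0 to 175 with a median of 140. Drought and control thus overlapped almost fully, and combined libraries overlapped them at the low end. Combined libraries at 72 h had 125, 106 and 199 CPM, of which the third was within the heated range, and those at 0 h had 108, 119 and 97.8.

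Pavir.9KG212600.v4.1 on chromosome 9K, with a gap of 1.14, had (113, 84.9, 93.7), (73.7, 96.6, 61.4), (80.1, 43.3, 56.7) and (68.9, 74.5, 81.0) CPM in replicates 1 to 3 in combined libraries of 96, 120, 144 and 168 h. The 12 control libraries had 19.3 to 41.6 CPM with a median of 29.9, all lower, and the 12 drought libraries 21.5 to 49.6 with a median of 33.8. Only combined 144 h replicate 2 fell into the drought range. Combined libraries at 72 h had 22.9, 31.7 and 107 CPM, so that replicate 3 was near the highest heated library while replicates 1 and 2 were at the control level. The drought libraries at 72 h, at 74.2, 29.3 and 65.3 CPM, were also above the later drought libraries in replicates 1 and 3.

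**Figure D4:**
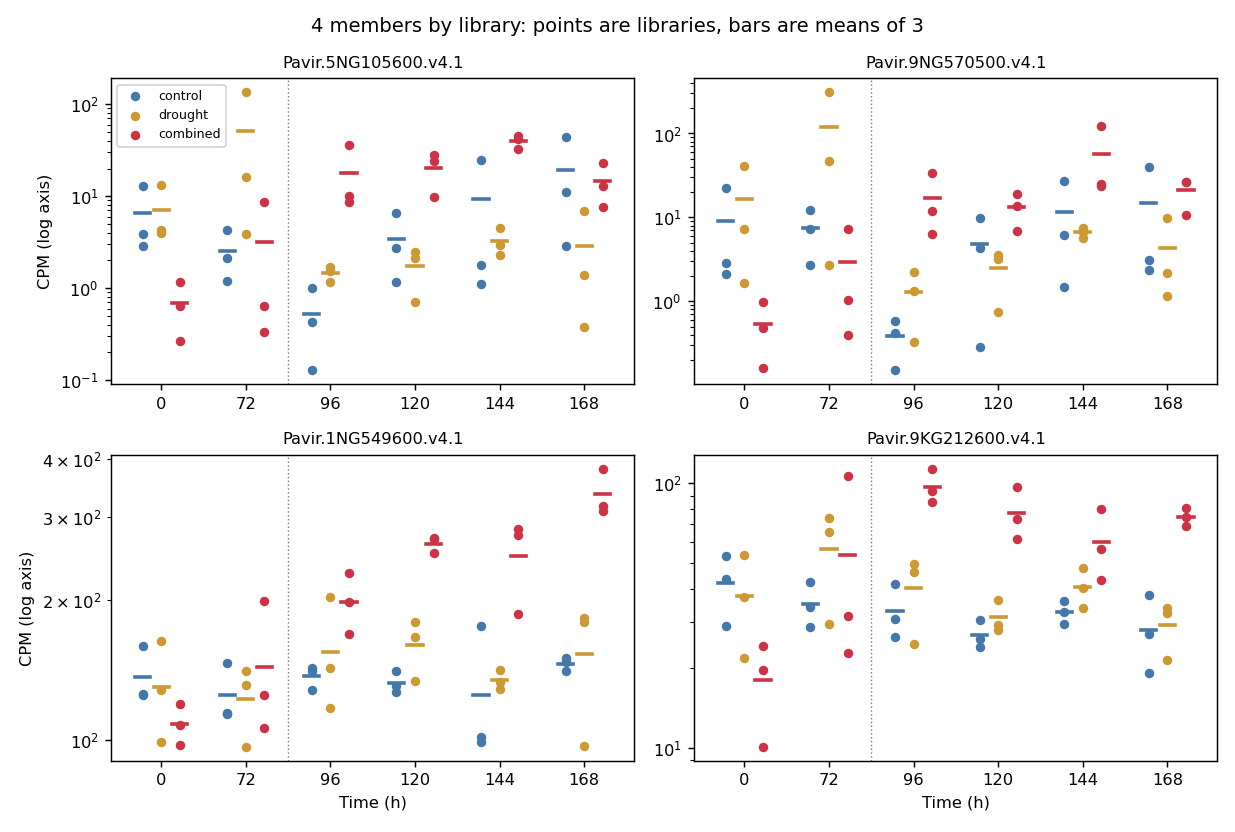
CPM on a log axis (y axis) by time (x axis, h) for 4 members; each point is a library, coloured by treatment, horizontal bars are means of 3 libraries and the dotted line marks the start of heat in combined plants. The upper pair, Pavir.5NG105600.v4.1 and Pavir.9NG570500.v4.1, reached their highest levels in drought at 72 h, at 135 and 309 CPM, while Pavir.1NG549600.v4.1 and Pavir.9KG212600.v4.1 had their highest levels in heated combined libraries.

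The rule did not use the 0 h libraries. It did ask that combined levels be low before heat at 72 h, which can favour genes that were low in the combined plants from the start. At 0 h, the start of the course, the combined plants had lower fitted levels than control in 73 of the 111 members and than drought in 70. The median difference of combined from control was -0.47 by column totals, where all genes had -0.29, and -0.21 by TMM. From drought it was -0.28 by column totals, where all genes had -0.19, and -0.07 by TMM. All 3 combined libraries were below all 3 control libraries in 58 members, where 35.4% of all genes had that order, and above them in 2 (Pavir.3NG196800.v4.1 and Pavir.5KG007200.v4.1), where 8.1% of all genes had it. They were below all 6 other libraries in 21 members, which is 18.9% of the members, beside 13.8% of all genes, and above all 6 in none, beside 2.63% of all genes.

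In the edgeR fit of combined against control at 0 h, 13 members were lower and 1 was higher at an adjusted p below 0.05. These are 11.7% and 0.90% of the members, where 7.47% of all genes were called lower and 5.48% higher. At an unadjusted p below 0.05, 31 were lower and 8 higher, together 35.1% of the members, beside 29.4% of all genes. The log2 differences of the 13 ran from -5.23 to -0.77. The strongest by p, chosen after its values were seen, was Pavir.2KG536600.v4.1, which had 16.4 ± 5.80 CPM (SD, n = 3) in control, 8.04 ± 7.34 in drought and 1.52 ± 0.61 in combined libraries at 0 h, a log2 difference of combined from control of -3.08 ± 0.54 (SE; edgeR adjusted p = 0.00133). Its heated combined libraries had 6.12 ± 3.12 CPM (SD, n = 12), lower than control at 0 h. In 11 of the 13 the mean of the heated combined libraries was below the control mean at 0 h. The member that was higher, Pavir.6NG288500.v4.1, had 27.1 ± 3.95 CPM in control and 33.4 ± 4.68 in combined libraries at 0 h (SD, n = 3). Its fitted log2 difference was 0.64, with an edgeR adjusted p of 0.044. The CPM are by column totals and the fit is by TMM. TMM factors were 1.06 to 1.15 in these control and 0.84 to 0.89 in these combined libraries. By CPM its 3 combined libraries were not all above the 3 control libraries. The count of 14 also depended on single libraries: without control 0 h replicate 1 it was 1, without combined 0 h replicate 3 it was 4 and without combined 0 h replicate 2 it was 9, while in a model of those 2 groups alone it was 3. Without the 16 libraries in which the 405-gene set was low it was 4, and without the 12 alone 7. For these settings the counts over all genes are not given here, so nothing about the members is read from the shifts.

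Between combined and drought at 0 h, 0 members were called by edgeR, as were 0.0% of all genes, with 22 members at an unadjusted p below 0.05, of which 21 were lower in combined libraries. These 22 are 19.8% of the members, beside 11.7% of all genes. DESeq2 called 8 members, and without drought 0 h replicate 2 edgeR called 3. The counts over all genes in these settings are not given here, so nothing about the members is read from them. The members with the smallest p were Pavir.7KG110100.v4.1 and Pavir.1NG323100.v4.1. Pavir.7KG110100.v4.1 had 5.09, 6.89 and 3.67 CPM in combined, 26.8, 149 and 39.7 in drought and 47.2, 25.1 and 47.4 in control libraries, a log2 difference from drought of -3.56 ± 0.85 (SE; edgeR adjusted p = 0.122; DESeq2 adjusted p = 0.00255). Pavir.1NG323100.v4.1 had 3.01, 2.94 and 1.22 CPM in combined, 5.2, 7.38 and 21.7 in drought and 14.7, 11.6 and 10.5 in control libraries, a log2 difference from drought of -1.96 ± 0.52 (SE; edgeR adjusted p = 0.136; DESeq2 adjusted p = 0.0208). In both the 3 combined libraries lay below all 6 others.

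On the higher side, Pavir.3NG135800.v4.1 had 19.6, 10.7 and 15.5 CPM in combined and 6.83, 14.3 and 12.3 in drought libraries at 0 h, at 0.69 ± 0.33 (SE; edgeR adjusted p = 0.399). Pavir.7KG242900.v4.1 had 11.7, 8.14 and 7.51 CPM in combined and 6.31, 8.92 and 9.35 in drought libraries, at 0.40 ± 0.21 (SE; edgeR adjusted p = 0.478). In both genes the groups overlapped. Without the 16 libraries in which the 405-gene set was low, the difference of Pavir.7KG242900.v4.1 was -0.018. Between drought and control at 0 h, edgeR called 0 members, beside 0.0219% of all genes, with 3 at an unadjusted p below 0.05, and DESeq2 called 0.

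Measured against the combined 0 h mean, combined plants had higher levels in nearly every member once heated. By column totals, the mean of the heated libraries was at least 0.5 log2 units above the combined mean at 0 h in 107 members, where 32.3% of all genes were. By TMM it was so in 77 members. The median was 0.90 by column totals and 0.67 by TMM, where all genes had 0.27 and 0.01. Above the combined 72 h mean by at least 0.5 were 72 members by column totals, where 10.3% of all genes were, and 61 by TMM. The medians were 0.58 and 0.52. Both held in 71 members by column totals. In 1 member, Pavir.1KG447300.v4.1, the heated mean was below the combined 0 h mean. The heated libraries entered the rule, and their difference from 0 h is not independent of it.

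In control plants, the mean of a member over 96 to 168 h differed from the control 0 h mean by a median of -0.26 by column totals, where all genes had -0.16, and of -0.06 by TMM, where all genes had 0.03. It was at least 0.5 below by column totals in 37 members, where 24.9% of all genes were. The heated combined mean was below the control mean at 0 h in 21 members and at least 0.5 above it in 52, where 19.7% of all genes were. The median difference of the heated combined mean from control at 0 h was 0.45, against 0.74 from control at the same times. Of the 111 members, 78 had the highest of their 54 values in a heated combined library, where 33.0% of all genes did, 13 in a control 0 h library and 8 in a drought 72 h library. Of the 78, 27 peaked in combined 96 h replicate 3 and 21 in combined 168 h replicate 1. By column totals these 2 libraries were high for genes in general, with 45.1% and 43.4% of all genes over the threshold and TMM factors of 1.27 and 1.24. Both the heated combined and the control libraries of 96 to 168 h entered the rule, so nothing is read from the shares in this paragraph.

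**Figure D5:**
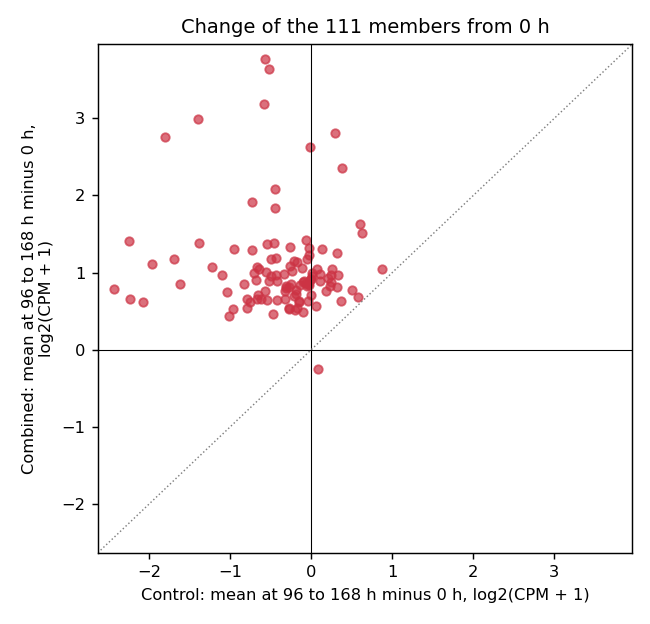
Change of each of the 111 members from 0 h to the mean over 96 to 168 h in log2(CPM + 1), in control plants (x axis) and in combined plants (y axis); each point is a gene, solid lines mark no change and the dotted line equal change. All but 1 of the members lie above 0 on the y axis, and the control changes had a median of -0.26.

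Within the heated period the times of the highest levels depended on the scaling. Of the 4 heated times, the combined mean was highest at 168 h in 72 members by column totals, where 45.6% of all genes were; 96, 120 and 144 h held the highest mean in 22, 9 and 8. By TMM 168 h held it in 43, where 26.6% of all genes had it, and the earlier times in 32, 15 and 21. The rule pooled the 4 times and so favours genes that are high at most of them. A linear trend of the combined means over these days was called by edgeR in 0 members, beside 2.17% of all genes. It had an unadjusted p below 0.05 in 6 members, all upward, which is 5.41% of the members beside 19.7% of all genes, and DESeq2 called 2 members among 2030 genes. Under drought edgeR called the trend in 0 members, beside 0.0% of all genes. There, 1 member had an unadjusted p below 0.05, beside 4.69% of all genes, and DESeq2 called 0 members among 69 genes. In control edgeR likewise called 0, beside 0.0% of all genes. There, 13 members, or 11.7%, had an unadjusted p below 0.05, near the 10% of all genes, and DESeq2 called 8 members among 459 genes. The difference between the combined and the drought trend was called in 0 members by edgeR, beside 0.0% of all genes, with 2 at an unadjusted p below 0.05, and in 0 by DESeq2.

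The upward trends with the smallest p were in Pavir.5KG060900.v4.1 and in the abundant Pavir.1NG549600.v4.1. Pavir.5KG060900.v4.1 on chromosome 5K had (5.01, 5.17, 8.50), (7.75, 7.99, 7.64), (8.55, 4.63, 9.61) and (13.8, 10.9, 10.4) CPM in replicates 1 to 3 in combined libraries of 96, 120, 144 and 168 h. Its trend was 0.23 ± 0.07 log2 units per day (SE; edgeR adjusted p = 0.0561; DESeq2 adjusted p = 0.0151), and the 3 libraries at 168 h were above all at the earlier times. Drought libraries of those times were between 3.72 and 6.97 CPM. Without combined 96 h replicate 3, 120 h replicate 3 or 144 h replicate 2 this gene passed the threshold in edgeR, at 0.29, 0.23 and 0.25 log2 units per day. The trend of Pavir.1NG549600.v4.1, with the values given above, was 0.17 ± 0.06 log2 units per day (SE; edgeR adjusted p = 0.0851; DESeq2 adjusted p = 0.0335).

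The downward estimates were smaller against their error. Pavir.1KG143700.v4.1 on chromosome 1K had (105, 71.9, 89.6), (93.5, 103, 73.8), (53.4, 45.9, 80.3) and (62.6, 68.8, 87.7) CPM in replicates 1 to 3 of 96, 120, 144 and 168 h, a trend of -0.19 ± 0.09 log2 units per day (SE; edgeR adjusted p = 0.256). The ranges at 96 and 168 h overlapped. For Pavir.9KG212600.v4.1 the trend was -0.20 ± 0.11 log2 units per day (SE; edgeR adjusted p = 0.316).

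The members were spread over the genome as coded in their identifiers. Of the 111, 56 lay on the K subgenome, which is 50.5% of the members beside 48.9% of all genes, 49 on the N subgenome, 44.1% beside 46.6%, and 6 on unplaced sequence, 5.41% beside 4.52%. Chromosomes 1N, 9K and 9N held the most, with 12, 11 and 10 members. That is 10.8%, 9.91% and 9.01% of the members, beside 6.24%, 7.84% and 9.68% of all genes, so 9N held less than its share. Of the 843 genes of 8N in the table, 0 were members. Neighbours were rare: 1 pair of members, Pavir.4NG288700.v4.1 and Pavir.4NG288900.v4.1, was adjacent in the order of identifiers, with a correlation of 0.83 over the 12 heated combined libraries, and 3 pairs lay 2 to 10 identifiers apart. Over all pairs of members the correlation over these 12 libraries had a median of 0.37, with quartiles of 0.09 and 0.60, as a description of libraries that share depth and treatment. Switchgrass is a polyploid, and the counts of near-identical K and N copies or of overlapping genes are uncertain where the counting could split reads between them.

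The 12 heated combined libraries were also not alike. The 405-gene set was nearly absent from 6 of them and present in the other 6. Where it was nearly absent, 41 to 107 members were over the threshold, with a median of 88.5, beside 14.0% to 43.4% of all genes. Where it was present the number was 93 to 111, with a median of 98.5, beside 23.4% to 45.1% of all genes. The lowest count, 41, was that of combined 144 h replicate 2, which also had the lowest share of all genes, 14.0%. In the drought libraries of the same times the counts were 13 to 19, or 11.7% to 17.1% of the members, in the 3 where the set was nearly absent, beside 22.1% to 28.7% of all genes. They were 10 to 44, or 9.01% to 39.6%, in the 7 where it was present, beside 10.5% to 34.1% of all genes. At every time, 0 and 72 h included, the set was nearly absent from combined replicate 2 and present in combined replicate 3. The part of this division in the members' levels was not tested.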

How the data were processed

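Leaf mRNA of 54 libraries (18 groups of 3) was analysed. Per the labels, the TruSeq kit used keeps strand. TopHat, Cufflinks and HTSeq are named in the submitters' processing notes. Tool versions, build, annotation and counting strand were not given in the sources used here. As deposited by the authors, the table has raw read counts (whole numbers) for 32190 identifiers. Of these, 0 matched the 74976 genes of the RefSeq table for P.virgatum_v5, so no gene names, functions or sequences are given.

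The rule was applied to log2(CPM + 1) with CPM from column totals. The tests used edgeR 4.0.16 (R 4.3.3) and a quasi-likelihood model of 18 group means over all 54 libraries, scaling by TMM (trimmed mean of M values) and the default expression filter (minimum count 10, minimum total 15), which kept 32011 genes, among them all 111 members, and removed 179. Genes with a Benjamini-Hochberg adjusted p below 0.05, over all genes tested, are called. Beyond counting error, the biological coefficient of variation was 0.433. Total counts were 19.2 to 61.6 M. The mean chi-square per gene between replicates of a group was 23.4 or more, far over sampling noise, so none was counted as a copy.

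The members, lists and comparisons were chosen with earlier results of these data known. Genes named were the 2 with the largest gaps and those at the edge of the list, the 2 rising and 2 falling members with the smallest p for the combined trend (at least 5 CPM over its heated libraries) and the 2 higher and 2 lower ones for combined against drought at 0 h (at least 5 CPM over all libraries), plus those said to be chosen after their values were seen or because they were called. The set of 405 other genes comes from a search of the 0 h libraries, without group labels, for genes whose log2 level splits by at least 2 (mean count of at least 20). Alternatives were DESeq2 1.42.0, its size factors, other filters and pseudocounts, a block for the replicate number, models of the groups compared, a gap of 1, leaving out libraries, and, chosen after seeing the data, leaving out 12 libraries and totals without the 100 most abundant genes.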

Additional observations from a re-analysis of the deposited data

Results flagged for a closer look

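Pavir.5NG105600.v4.1 differed between combined and drought plants in opposite directions at 0 h and in the heated period. At 0 h all 3 combined libraries, at 1.15, 0.639 and 0.266 CPM, were below all 3 drought libraries, at 4.0, 13.1 and 4.30 CPM, a difference of mean log2(CPM + 1) of -2.13. At 96 to 168 h all 12 combined libraries were above all 12 drought libraries. Between combined and drought at 0 h, edgeR called 0 members, this gene included, beside 0.0% of all genes. The difference between the 2 periods was not tested, and the values at 96 to 168 h chose the gene.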

How the results depend on the processing

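Which genes met the rule changed most: 9 at a gap of 1, 68 without the 16 libraries in which the set of 405 other genes was low, 296 without the 12 in which it was nearly absent (chosen after seeing the data), and 46 to 452 when single libraries were left out. Combined against control at 0 h gave 25 members by DESeq2, 3 in a model of those groups alone, 4 without the 16 libraries, 7 without the 12, and 1 to 15 when single libraries were left out. Combined against drought at 0 h gave 8 by DESeq2 and 0 to 3 without single libraries, and drought against control at 0 h 0 to 0. DESeq2 called 2 members for the combined trend and 8 for the control trend; leaving out single libraries gave 0 to 1 and 0 to 4, and 0 to 0 for the drought trend and the difference of trends. Over the heated times, combined against drought gave 47 without the 16 libraries, 52 without the 12 and 86 to 96 without single libraries. Minus the 72 h difference it gave 10 by DESeq2, 0 without the 16 or the 12, and 0 to 12 without single libraries. For single named genes, Pavir.7KG242900.v4.1 at 0 h reversed to -0.018 from 0.40 without the 16 libraries. The causes were not tested, beyond fewer libraries entering some of these settings. For most of these settings the counts over all genes are not given here. The counts of members thus show how calls shift with the settings, and not how members compare with other genes.

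The labels do not say that a replicate number marks a shared plant. Same-numbered deviations correlated at -0.47 to 0.33 between groups of different treatments at 0 h. At 96 to 168 h they correlated at -0.24 to 0.34 among control, -0.14 to 0.59 among drought and -0.15 to 0.73 among combined groups. The main model did not use the numbers as pairs, as the labels give no pairing. The best partner had the same number in 4 of 18 cases between treatments at 0 h. Between times within a treatment, at 96 to 168 h, it did in 15 of 36 in control, 30 of 36 in drought and 25 of 36 in combined groups. That is a hint of pairing in the stressed groups that comes from the data and not from the design. As the 0 h cases compare treatments and not times, they do not show whether pairing was absent at the start. With the replicate block, 19 members were called for combined against control at 0 h, 1 for the combined trend (Pavir.5KG060900.v4.1, edgeR adjusted p = 0.0491) and 7 for the heated difference minus that at 72 h. The counts over all genes with the block are likewise not given. At these totals replicates differed by far more than counting error, so the 3 libraries per group, more than depth, set the precision.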
